A study of Bos taurus with 4 samples.

Results

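Genes of foreign compound and steroid metabolism were compared between inner cell masses (ICMs) of bovine embryos grown in 2 media. The genes were chosen by their symbol in the annotation of the array. They comprise the cytochrome P450s (except the *CYP51* genes of cholesterol synthesis), the glucuronosyltransferases of families 1 and 2, the sulfotransferases, the aldehyde dehydrogenases, the aldo-keto and carbonyl reductases, the epoxide hydrolases, the flavin monooxygenases, the 3β-hydroxysteroid dehydrogenases, and *AHR*, *AHRR*, *TIPARP*, *POR*, *STAR*, *HSD17B1*, *HSD11B1* and *SRD5A1*. This gave 67 genes with 171 probes, of 12545 named genes and 43653 gene probes on the array. *ARNT*, *CYP1A2* and *HSD11B2* were not analysed here.

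All embryos were produced in vitro from slaughterhouse ovaries of mixed breeds and sperm of a single bull. After the fertilization medium, all spent 4 days in synthetic oviductal fluid (SOF), the usual medium for bovine embryos. NHSM embryos were then moved to NHSM, a medium designed for naive human stem cells, and SOF embryos to fresh SOF, and both were collected on day 9 after fertilization. NHSM is based on KO-DMEM with TGFβ1 (1 ng/ml), bFGF (8 ng/ml), LIF (20 ng/ml), the serum replacement KOSR (20%), insulin, and inhibitors of MEK (PD0325901), GSK3 (CHIR99021), PKC (Go6983), JNK (SP600125) and p38 (SB203580). As all of these differ from SOF at once, the effects of single components cannot be told apart. ICMs were dissected with needles and were not wholly free of trophectoderm, the outer cell layer of the blastocyst. Pools of 11 to 24 ICMs were hybridised on 4 two-colour arrays. Each array paired an NHSM pool with a SOF pool, so that there were 4 pools of each medium. The NHSM pool carried the dye Cy3 on arrays 1 and 3 and Cy5 on arrays 2 and 4.

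Cytochrome P450s are haem enzymes that insert an oxygen atom into lipophilic molecules, with electrons supplied by the reductase POR in the endoplasmic reticulum or by ferredoxin in mitochondria. Reductases and aldehyde dehydrogenases then convert the carbonyl groups that arise in this and other reactions, and transferases couple the products to sulfate or glucuronic acid. The aryl hydrocarbon receptor (AHR) is a ligand-activated transcription factor that pairs with ARNT and induces *CYP1A1*, *CYP1B1*, *TIPARP* and its own repressor *AHRR*. Several enzymes of the same families make or inactivate steroids and retinoic acid, and are also active in the embryo and placenta.

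Signals are given as log2 of the normalized spot intensity of each pool, and differences as log2 fold changes of NHSM over SOF with their standard error (SE), from the 4 log2 ratios within arrays. Each gene is represented by its brightest probe. A gene passed at a Benjamini-Hochberg adjusted p under 0.05 in limma, adjusted over all gene probes. Signals of different probes are not comparable as levels of their genes. A probe was taken as above the floor in a pool where it exceeded the 95th percentile of the control spots of that channel, as did 44.0% to 72.1% of gene probes among NHSM pools and 48.8% to 67.3% among SOF pools. Of listed marker genes, 11 of 17 for trophectoderm, 9 of 12 for hypoblast and 5 of 10 for ICM were measured. Lower in NHSM were 2 trophectoderm genes (*TFAP2A* and *GATA2*, 18.2%), 1 hypoblast gene (*GATA6*, 11.1%) and 3 ICM genes (*SOX2*, *PRDM14* and *NANOG*, 60%). Of those for cumulus and granulosa cells, 7 of 11 were measured, and 1 was higher (*FSHR*, 14.3%). The other 6 did not pass and had log2 fold changes below 0. These shares are of the genes measured, against 5.95% higher and 5.94% lower among all named genes. The pools of *SOX2* and *PRDM14* overlapped between the media, and the paper reports no significant change of *SOX2*. *CDX2* and *IFNT* were not measured under these symbols, and the paper reports *IFNT* as lower in NHSM. Of the ICM list, *POU5F1*, *TDGF1* and *DPPA3* were likewise not measured. The paper reports *POU5F1* at similar levels in both media and *TDGF1* and *DPPA3* as lower in NHSM. The summed linear signal of the trophectoderm list was 57918 to 77384 in NHSM pools and 68354 to 84325 in SOF pools. Within each medium it was higher in the pools in Cy3 (NHSM 1 and 3, SOF 2 and 4). The brightest gene of that list, *TFAP2C*, did not pass. Its ratios were 0.62, -0.69, 0.51 and -0.85 on arrays 1 to 4 and split by dye. The hypoblast list summed to 7685 to 10621 in NHSM pools and 7995 to 9560 in SOF pools. Most of that sum came from *APOA1* (mean log2 signal 12.52), which did not pass. The ICM list summed to 4415 to 5551 in NHSM pools and 5788 to 6404 in SOF pools. Most of it came from *NANOG* (mean log2 signal 11.95, the next being *SOX2* at 9.74). The ICM sum therefore largely repeats the decrease of *NANOG* and is no separate result for the list. The cumulus and granulosa list holds *STAR* and *CYP19A1* of the genes described here. It summed to 49438 to 62785 in NHSM pools and 49557 to 88501 in SOF pools. In both media the pools in Cy5 stood above the others (NHSM 2 and 4, SOF 1 and 3). *AMH*, a bright gene of that list, had ratios of -0.94, 0.24, -1.11 and 0.55 on arrays 1 to 4, which split by dye. It did not pass (adjusted p = 0.0521). Pool signals carry dye bias, so these sums cannot show how many cells of each type a pool held. The part of these cell types in the results below was not tested.

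Of the 67 genes, 6 were higher and 6 were lower in NHSM-cultured ICMs, and 55 did not pass. This is 8.96% in each direction, against 5.95% higher and 5.94% lower among all named genes. At 1.5-fold or more, 3 genes were higher (*SULT1E1*, *HSD3B* and *CYP2C87*) and 3 were lower (*CYP1A1*, *ALDH3A2* and *ALDH2*), against 1.23% and 1.36% of all named genes. By the RefSeq annotation of ARS-UCD2.0 these 6 genes lie on chromosomes 6 (*SULT1E1*), 3 (*HSD3B*), 26 (*CYP2C87*), 21 (*CYP1A1*), 19 (*ALDH3A2*) and 17 (*ALDH2*). The median log2 fold change was -0.02 for the 67 genes and -0.02 for all named genes. Pools did not overlap between the media for 6 higher and 6 lower genes of the 67. Among the 12545 named genes this held for 726 higher and 683 lower genes. In bulk RNA of this kind, fewer cells of a type and less RNA per cell cannot be told apart.

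Many of these genes gave little signal. The brightest probe lay above the floor in all 8 pools for 40 genes, in some pools for 22 genes and in no pool for 5 genes (*SULT1C3*, *SULT2A1*, *FMO1*, *CYP2C19* and *HSD11B1*). All 12 genes that passed were among the 48 whose mean signal exceeded the mean floor, which is 12.5% of the 48 in each direction, against 7.58% higher and 7.58% lower among the 9739 named genes above it.

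**Figure D1:**
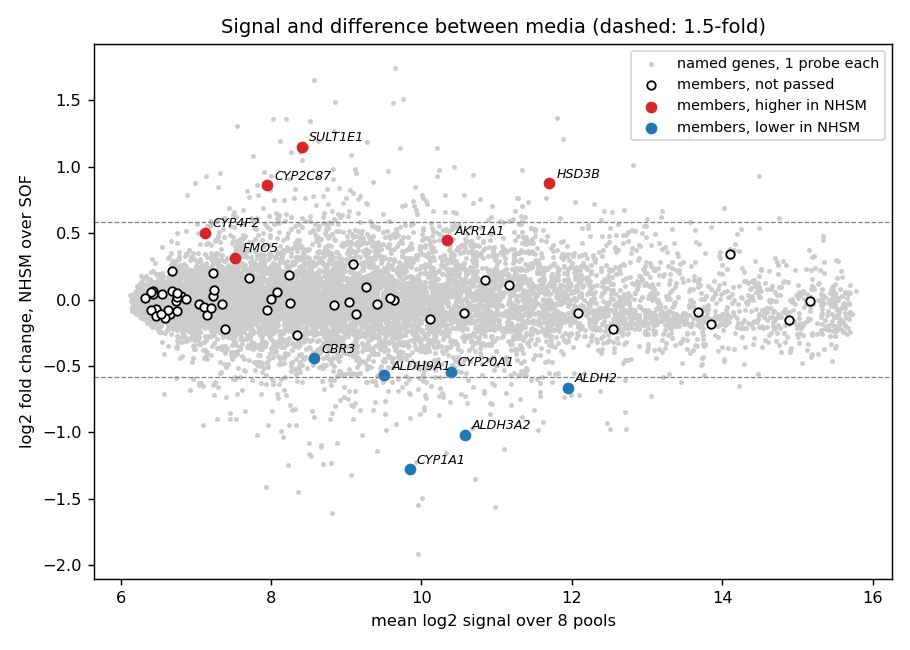
Mean log2 signal over the 8 pools (horizontal) against the log2 fold change of NHSM over SOF (vertical) for each named gene (grey) and the 67 genes described here (circles, red where higher and blue where lower in NHSM). The genes that passed spread from *CYP4F2* at a low signal to *HSD3B* and *ALDH2* at signals near 12, and genes near the floor, at the left, lie close to 0.

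The largest decrease was that of *CYP1A1*, which oxidises polycyclic aromatic compounds and is the classical target of the AHR. Its brightest probe had log2 signals of 9.40, 9.34, 8.99 and 9.08 in NHSM pools 1 to 4, against 10.48, 10.40, 10.28 and 10.76 in SOF pools 1 to 4. Every NHSM pool lay below every SOF pool. Signals averaged 9.20 ± 0.20 in NHSM and 10.48 ± 0.20 in SOF (SD, n = 4 each), a log2 fold change of -1.28 (SE 0.11, adjusted p = 0.00115), that is, 2.42-fold lower in NHSM. The 95% interval ran from -1.53 to -1.02. The gene has 3 other probes on the array, with log2 fold changes of 0.02, 0.01 and -0.02. These lay above the floor in at most 1 pool of each medium, so the decrease rests on 1 probe.

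The other genes of the AHR axis did not pass. *AHR* itself had log2 signals of 7.97, 8.05, 8.11 and 8.31 in NHSM pools, against 7.88, 8.15, 7.88 and 8.31 in SOF pools. The pools overlapped, and the log2 fold change was 0.06 (SE 0.07, 95% interval -0.10 to 0.21, adjusted p = 0.804). *TIPARP*, a mono-ADP-ribosyltransferase that the AHR induces and that restrains it in turn, averaged 9.63 ± 0.15 in NHSM and 9.63 ± 0.24 in SOF (SD, n = 4 each). Its 95% interval was -0.16 to 0.16. *AHRR*, the repressor, exceeded the floor in 2 NHSM pools and in 0 SOF pools (log2 fold change 0.06, adjusted p = 0.778). *CYP1B1*, which hydroxylates oestradiol as well as aromatic hydrocarbons, exceeded it in 0 NHSM pools and in 1 SOF pool (-0.07, adjusted p = 0.763), so a change in either gene was not measurable at this signal.

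Among further genes linked to the AHR, of which 13 of 21 listed were measured, 3 were higher and 0 were lower. This is 23.1% higher, against 5.95% higher and 5.94% lower among all named genes. The list held binding partners, coactivators and induced enzymes outside the families above, and other transcription factors (*HIF1A*, *ARNTL*, *SIM1* and *SIM2*). It was chosen with earlier results of these data known. *XDH*, the xanthine dehydrogenase of purine breakdown, had log2 signals of 9.53, 9.73, 9.41 and 9.71 in NHSM pools, against 8.27, 8.11, 7.90 and 8.14 in SOF pools. The media did not overlap, and the log2 fold change was 1.49 (SE 0.07, adjusted p = 0.000212), or 2.81-fold higher in NHSM. *NQO1*, a quinone reductase induced by both the AHR and NRF2, was also higher (0.64, adjusted p = 0.00589), as was *SELENBP1*, a methanethiol oxidase (0.48, adjusted p = 0.0300). *XDH* and *NQO1* passed in all 13 alternative analyses, though averaging all probes of *XDH* gave 0.72. *SELENBP1* did not pass in 4 of the 13, and gave 0.19 with all its probes averaged (adjusted p = 0.106) and an adjusted p of 0.140 without replicate 2. The median log2 fold change of the 13 genes was 0.10, against -0.02 for all named genes.

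**Figure D2:**
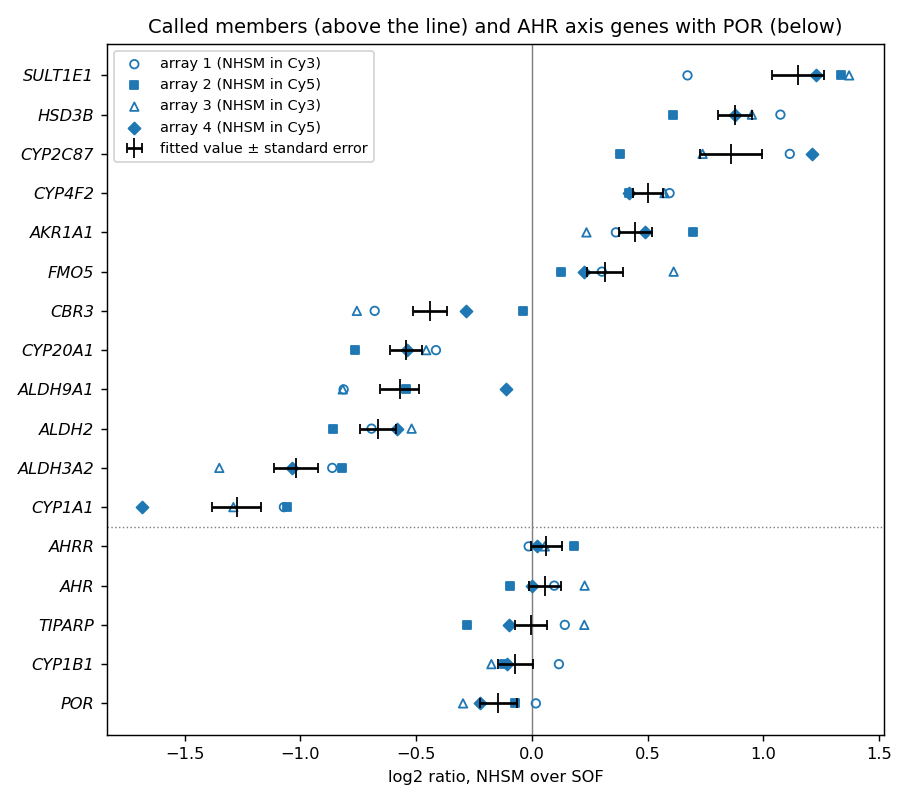
Log2 ratio of NHSM over SOF on each of the 4 arrays (open symbols, NHSM in Cy3; filled symbols, NHSM in Cy5), with the fitted value and its standard error, for the 12 genes that passed (above the dotted line) and for *AHRR*, *AHR*, *TIPARP*, *CYP1B1* and *POR* (below it). All 4 arrays lie on one side of 0 for each of the 12 genes, which were chosen by a test of these same ratios. The smallest ratios are those of array 2 for *CBR3* (-0.04) and array 4 for *ALDH9A1* (-0.11).

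Of 13 aldehyde dehydrogenases, 3 fell and 0 rose, which is 23.1% lower against 5.94% of all named genes and 7.58% of those above the mean floor. *ALDH3A2* oxidises long-chain fatty aldehydes in the endoplasmic reticulum. It had log2 signals of 10.22, 10.25, 9.67 and 10.11 in NHSM pools, against 11.08, 11.08, 11.03 and 11.14 in SOF pools. The SOF pools lay close together and all NHSM pools lay below them, with pool 3 lowest. *ALDH3A2* was 2.02-fold lower in NHSM (log2 fold change -1.02, SE 0.09, adjusted p = 0.00168), and a second probe above the floor in all pools was also lower (-0.68, adjusted p = 0.00236).

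*ALDH2*, the mitochondrial enzyme that clears acetaldehyde and lipid peroxidation products, had log2 signals of 11.42, 11.49, 11.83 and 11.70 in NHSM pools, against 12.12, 12.35, 12.35 and 12.28 in SOF pools. The media did not overlap. The log2 fold change was -0.66 (SE 0.08, adjusted p = 0.00346), and a second probe, which averaged 9.00 in NHSM and 9.66 in SOF, gave -0.66 as well (adjusted p = 0.00500). *ALDH9A1*, which acts in carnitine synthesis and on aminoaldehydes, was 1.49-fold lower in NHSM (-0.57, SE 0.08, adjusted p = 0.00848), but its array ratios ranged from -0.82 to -0.11. Its second probe was also lower (-0.52, adjusted p = 0.0157). Without a dye term *ALDH9A1* did not pass (adjusted p = 0.0581).

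Another gene of the family, *ALDH4A1*, which completes the breakdown of proline in mitochondria, differed between probes. Its brightest probe averaged 10.51 in NHSM and 10.61 in SOF and did not pass (-0.10, adjusted p = 0.598). Of its 3 other probes, 2 were lower (-0.81, adjusted p = 0.00152, and -0.45, adjusted p = 0.00740). The retinaldehyde dehydrogenases *ALDH1A1*, *ALDH1A2* and *ALDH1A3*, which make retinoic acid, did not pass, with log2 fold changes of 0.20, -0.04 and 0.15. Neither did *ALDH18A1*, which despite its name builds proline (-0.09, adjusted p = 0.704).

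**Figure D3:**
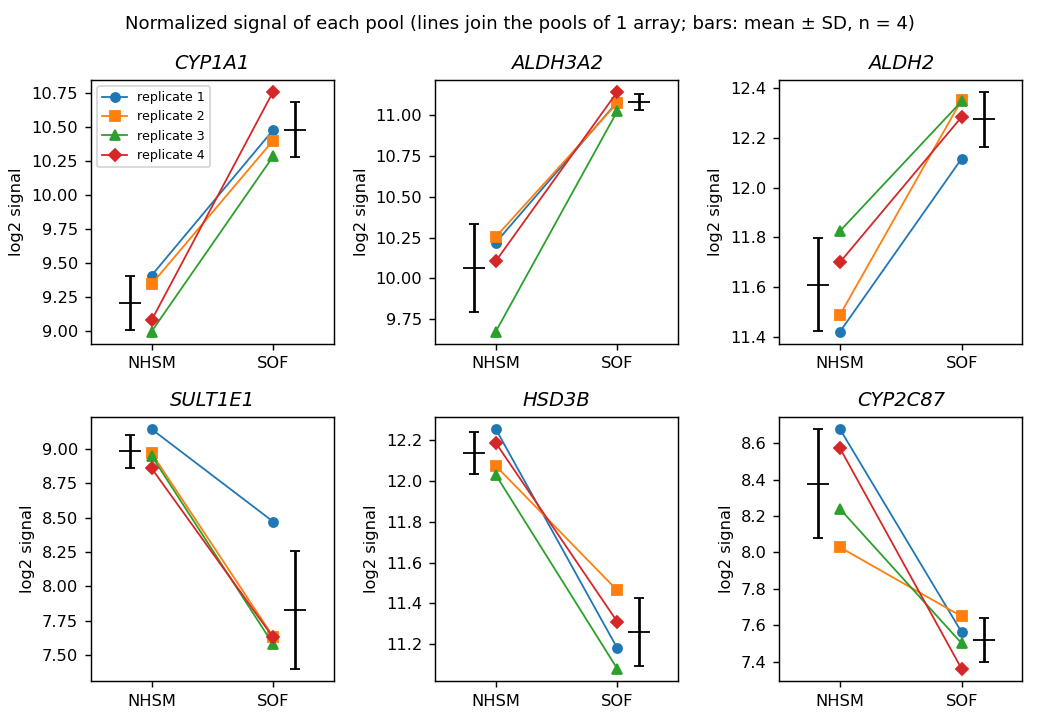
Normalized log2 signal of each NHSM pool (left) and SOF pool (right) for the 6 genes that passed at 1.5-fold or more, with lines joining the pools of 1 array and bars for mean ± SD (n = 4). For *CYP1A1*, *ALDH3A2* and *ALDH2* all NHSM pools lie below all SOF pools, and for *SULT1E1*, *HSD3B* and *CYP2C87* all lie above. Each vertical axis covers only the range of its gene.

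*SULT1E1*, the oestrogen sulfotransferase, which inactivates oestradiol by coupling it to sulfate, showed the largest increase among the 67 genes. It had log2 signals of 9.14, 8.97, 8.95 and 8.86 in NHSM pools, against 8.47, 7.64, 7.58 and 7.63 in SOF pools. SOF pool 1 stood above the other SOF pools and still lay below every NHSM pool. The log2 fold change was 1.15 (SE 0.11, adjusted p = 0.00196), a 2.22-fold increase, and a second probe above the floor in all pools was also higher (0.77, adjusted p = 0.00576). Of the 9 transferases, *SULT1E1* was the only one to pass by its brightest probe. This is 11.1% higher, against 5.95% of all named genes.

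*SULT1A1*, which sulfates small phenols, and *UGT1A1*, which couples bilirubin and oestradiol to glucuronic acid, were among the 6 genes of highest mean signal that did not pass. *SULT1A1* averaged 15.16 ± 0.35 in NHSM and 15.17 ± 0.32 in SOF (SD, n = 4 each), with 2 of its 8 channel values saturated and with ratios that were negative on arrays 1 and 3 and positive on arrays 2 and 4 (-0.30, 0.34, -0.25 and 0.15 on arrays 1 to 4). Its second brightest probe was higher in NHSM (0.40, adjusted p = 0.0195). *UGT1A1* had ratios of 0.46, -0.42, -0.17 and -0.76 on arrays 1 to 4 and a log2 fold change of -0.22 (adjusted p = 0.380). The UGT1A genes share most of their exons, so its probes need not tell them apart.

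*HSD3B*, whose current symbol is *HSD3B1* and whose product turns pregnenolone into progesterone, had log2 signals of 12.25, 12.07, 12.03 and 12.19 in NHSM pools, against 11.18, 11.46, 11.08 and 11.31 in SOF pools. All NHSM pools lay above all SOF pools, a 1.84-fold increase (log2 fold change 0.88, SE 0.07, adjusted p = 0.00117). A second probe, also above the floor in all pools, did not show it (0.07, adjusted p = 0.753). The other 5 steroid hormone genes did not pass by their brightest probes, which makes 16.7% higher, against 5.95% of all named genes. *STAR*, which brings cholesterol into mitochondria, had log2 signals of 14.64, 14.70, 15.01 and 14.92 in NHSM pools, against 14.79, 14.62, 15.72 and 14.75 in SOF pools, where pool 3 stood apart (-0.15, adjusted p = 0.518). *SRD5A1*, a steroid 5α-reductase, gave 0.11 by its brightest probe (adjusted p = 0.550) and 0.39 by its other probe (adjusted p = 0.0470).

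Among the 8 P450s of steroid, bile acid, vitamin D and retinoid metabolism (12.5% lower, against 5.94% of all named genes), only *CYP20A1* passed. It is an orphan enzyme without an established substrate. *CYP20A1* averaged 10.12 ± 0.08 in NHSM and 10.66 ± 0.18 in SOF (SD, n = 4 each), 1.46-fold lower in NHSM (-0.54, SE 0.07, adjusted p = 0.00520), and its second probe gave -0.44 (adjusted p = 0.0100). *CYP19A1*, the aromatase that makes oestrogens, did not pass by its brightest probe (-0.07, adjusted p = 0.802), while 1 of its 4 other probes was higher (0.43, adjusted p = 0.0416). None of its probes exceeded the floor in all 8 pools. *CYP26A1* and *CYP26B1*, which degrade retinoic acid, did not pass and were above the floor in 1 and 3 NHSM pools and in 1 and 1 SOF pools.

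Of the 11 genes of P450 families 2 to 4 together with *POR*, 2 rose and 0 fell (18.2% higher, against 5.95% higher and 5.94% lower among all named genes). *CYP2C87*, a bovine member of the drug-metabolising CYP2C subfamily, had log2 signals of 8.68, 8.03, 8.24 and 8.57 in NHSM pools, against 7.56, 7.65, 7.50 and 7.36 in SOF pools. The media did not overlap, though NHSM pool 2 came close to SOF pool 2. From its single probe on the array the increase was 1.82-fold (log2 fold change 0.86, SE 0.14, adjusted p = 0.0101).

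*CYP4F2*, which in humans hydroxylates the tails of fatty acids, leukotriene B4 and vitamin K, averaged 7.37 ± 0.06 in NHSM and 6.87 ± 0.14 in SOF (SD, n = 4 each). It was above the floor in 4 NHSM pools and in 2 SOF pools, and was 1.42-fold higher in NHSM (0.50, SE 0.06, adjusted p = 0.00491). *CYP4A22*, another fatty acid hydroxylase, had ratios of -0.53, 0.50, -1.18 and 0.46 on arrays 1 to 4, which split by the dye of the NHSM pool, and a log2 fold change of -0.19 (adjusted p = 0.448). Of its 2 other probes, 1 was higher in NHSM (0.30, adjusted p = 0.0498), which exceeded the floor in 3 NHSM pools and 0 SOF pools. *POR*, the electron donor of all microsomal P450s, averaged 10.04 ± 0.13 in NHSM and 10.19 ± 0.06 in SOF (SD, n = 4 each) and did not pass (-0.14, 95% interval -0.33 to 0.04, adjusted p = 0.418).

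Of 19 measured genes for other electron donors and haem supply (22 listed), 4 were higher and 1 was lower. This is 21.1% higher and 5.26% lower, against 5.95% and 5.94% of all named genes. The list was chosen with earlier results of these data known. *FDX1*, the ferredoxin of mitochondrial P450s (0.48, adjusted p = 0.00935), *FDX2*, the ferredoxin of iron-sulfur cluster assembly (0.56, adjusted p = 0.0179), *CYB5R4*, a reductase with a cytochrome b5 domain (0.37, adjusted p = 0.0256), and *ALAD*, an early enzyme of haem synthesis (0.36, adjusted p = 0.0325), were higher. *PGRMC2*, a haem-binding membrane protein, was lower (-0.29, adjusted p = 0.0466). The pools of *CYB5R4* and *PGRMC2* overlapped between the media, and the ratio of *CYB5R4* on array 4 was -0.12. Of 13 alternative analyses, *ALAD* did not pass in 6, *CYB5R4* in 4, *FDX1* in 2, *FDX2* in 2 and *PGRMC2* in 7. Without replicate 2 none of these 5 genes passed (adjusted p = 0.198, 0.172, 0.0520, 0.0678 and 0.269, in that order), *ALAD* and *PGRMC2* did not pass without replicate 1 (0.0594 and 0.103) or without replicate 4 (0.0679 and 0.146), and *ALAD* gave 0.20 with all its probes averaged. The median log2 fold change of the 19 genes was 0.10, against -0.02 for all named genes.

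Of 10 carbonyl-reducing enzymes, 1 was higher, 1 was lower and 8 did not pass, against 5.95% higher and 5.94% lower among all named genes. *AKR1A1*, the NADPH-dependent aldehyde reductase, averaged 10.57 ± 0.15 in NHSM and 10.12 ± 0.11 in SOF (SD, n = 4 each), an increase of 0.45 on the log2 scale (SE 0.07, adjusted p = 0.0106). Without replicate 2 it did not pass (adjusted p = 0.0702). *CBR3*, a carbonyl reductase, averaged 8.35 ± 0.26 in NHSM and 8.79 ± 0.09 in SOF (SD, n = 4 each), a log2 fold change of -0.44 (SE 0.07, adjusted p = 0.0118), with array ratios of -0.68, -0.04, -0.76 and -0.29. Its second probe gave -0.47 (adjusted p = 0.0226). *CBR3* did not pass without replicate 4 (adjusted p = 0.0770), without a dye term (0.129) or with separate channels (0.0568).

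*AKR1B1*, aldose reductase, which in cattle also makes prostaglandin F2α, narrowly missed the threshold by its brightest probe, with log2 signals of 14.26, 14.31, 14.21 and 14.33 in NHSM pools, against 13.72, 13.81, 13.90 and 14.32 in SOF pools (0.34, adjusted p = 0.0800). SOF pool 4 reached the NHSM pools and the other SOF pools did not. Its 3 other probes were all higher in NHSM (0.44, 0.53 and 0.52, adjusted p = 0.0231, 0.00466 and 0.0146).

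Of the 5 epoxide hydrolases and flavin monooxygenases (20% higher, against 5.95% of all named genes), only *FMO5* passed. Unlike its relatives it acts mainly on carbonyl compounds. It averaged 7.68 ± 0.21 in NHSM and 7.37 ± 0.03 in SOF (SD, n = 4 each), a log2 fold change of 0.32 (SE 0.08, adjusted p = 0.0485) close to the threshold. *FMO5* passed in 6 of 13 alternative analyses. The epoxide hydrolases *EPHX1* and *EPHX3* both gave -0.08 (adjusted p = 0.832 and 0.677).

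**Figure D4:**
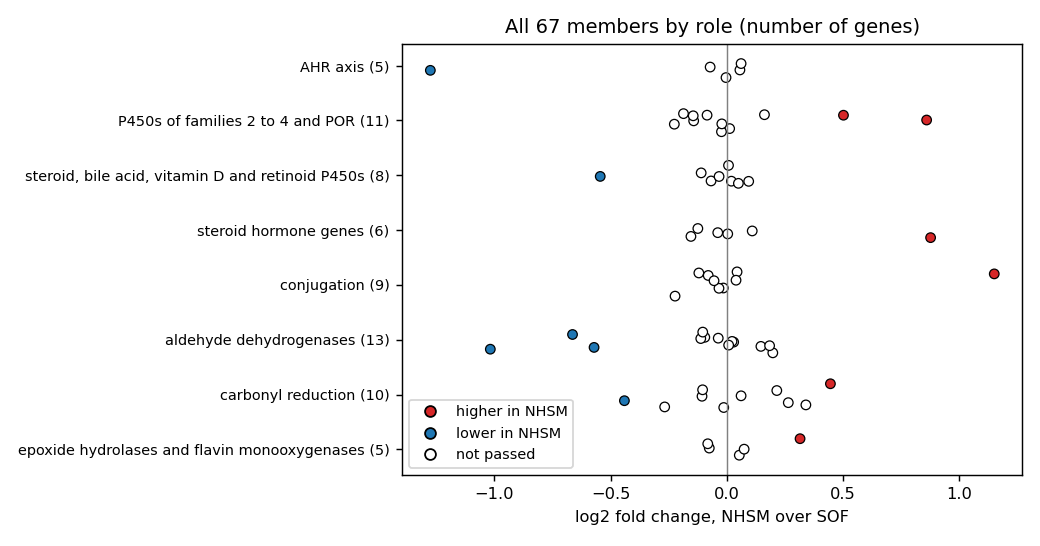
Log2 fold change of NHSM over SOF for all 67 genes by role (rows, with the number of genes), red where higher, blue where lower and white where the gene did not pass. The 3 aldehyde dehydrogenases that passed all lie below 0, and the genes that did not pass lie between -0.27 and 0.27 except *AKR1B1* at 0.34.

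Probes of the same gene were set against each other where it had more than 1, as 51 of the 67 genes did. Of the 12 genes that passed, 11 had other probes. Among these, 7 probes exceeded the floor in all pools and 6 of them passed in the same direction as the brightest probe, the exception being that of *HSD3B*. The 16 that did not exceed it in all pools gave log2 fold changes of -0.22 to 0.30 and 0 passed. Of the 55 genes that did not pass by their brightest probe, 6 had another probe that did (*ALDH4A1*, *AKR1B1*, *SULT1A1*, *SRD5A1*, *CYP19A1* and *CYP4A22*), and 0 genes had probes that passed in both directions. Averaging all probes of a gene gave smaller log2 fold changes that still passed, of -0.32 for *CYP1A1*, -0.40 for *ALDH3A2*, -0.43 for *ALDH2*, 0.60 for *SULT1E1*, 0.35 for *HSD3B*, 0.22 for *AKR1A1* and 0.26 for *CYP4F2*. *FMO5* gave 0.02 in the same way and did not pass (adjusted p = 0.899).

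**Figure D5:**
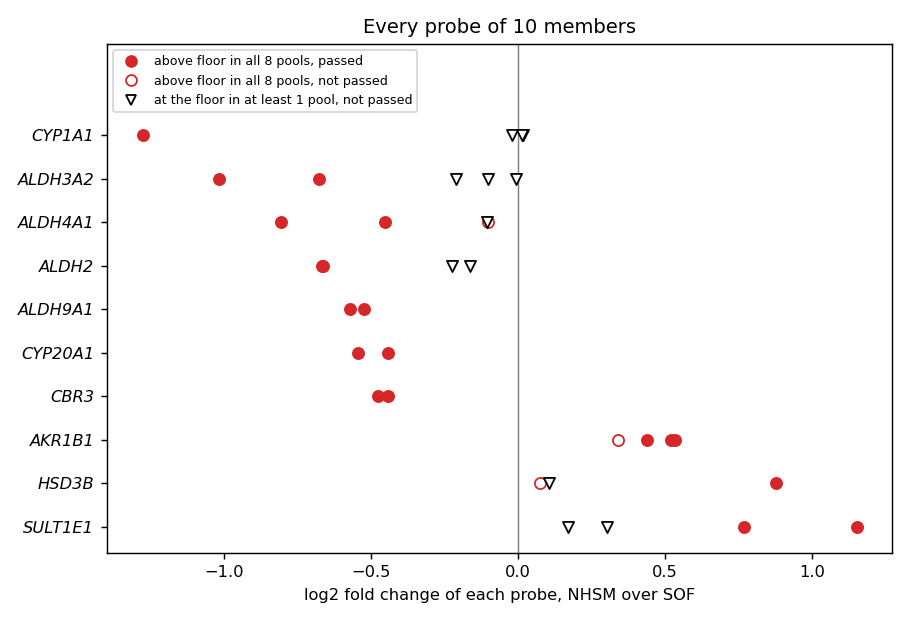
Log2 fold change of NHSM over SOF for every probe of 10 genes (rows), as circles where the probe exceeded the floor in all 8 pools and triangles where it did not, filled where it passed. The 3 dim probes of *CYP1A1* lie at 0 while its bright probe lies at -1.28, and the probes of *ALDH9A1*, *CYP20A1* and *CBR3* lie together.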

How the data were processed

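The scanner files deposited by the authors hold linear spot intensities, not normalized, and the authors' table holds log2 ratios of Cy5 over Cy3, made from ImaGene intensities by loess and a gene-specific dye correction. The authors tested these with a permutation F2 test in MAANOVA. Here each array's log2 ratios, taken from the mean spot intensities with no background subtracted, were loess-normalized with control spots at weight 0. Of 45220 spots, 1567 were controls. The file's first channel was taken as Cy5. Each column of the authors' table correlated with the ratios of its own array (Pearson's r 0.775 to 0.870 across probes) and at most at 0.387 with another array of the same dye orientation. The model in limma 3.58.1 (R 4.3.3) held medium and dye, with 2 residual and 5.33 prior degrees of freedom. Pool signals came from the same loess values after Aquantile scaling and carry dye bias that the model removes from the fold changes. Symbols and chromosomes were updated through RefSeq ARS-UCD2.0 (1831 symbols changed, 298 kept although not found there). The array symbols *CYP4F3* and *CYP2C19* are currently *LOC534967* and *CYP2C89*.

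The paper calls the pools independent biological replicates. The number of arrays, 4, limits the precision. Saturated spots numbered 120 to 140 per array in Cy5 and 0 to 3 in Cy3. The genes and lists were chosen with earlier results of these data known. Named in the text by rule were the AHR genes and *POR*, all genes that passed, the 6 of highest mean signal that did not pass, and at most 4 that passed from each further list. Others were named after their values were seen. Alternatives covered background, normalization, dye term, pairing, probe choice, dim probes, adjustment, variance trend and each replicate left out. The fit was tested on simulated data. No sequences were used.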

Additional observations from a re-analysis of the deposited data

How the results depend on the processing

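Across 13 alternatives, 4 to 9 genes were higher and 4 to 9 lower, against 6 and 6. At 1.5-fold, 0 genes were lower and 2 were higher when probes of a gene were averaged, against 3 and 3. Averaging takes in probes near the floor and, for *HSD3B*, a probe above the floor in all pools that did not pass. With median centring 2 genes were lower at 1.5-fold, and 3 to 5 were lower on leaving out 1 replicate (5 without replicate 4). *CYP1A1*, *ALDH3A2*, *ALDH2*, *CYP20A1*, *SULT1E1*, *HSD3B*, *CYP2C87* and *CYP4F2* passed in all 13. *FMO5* passed in 6 of 13 (adjusted p up to 0.899, the cause was not tested) and *CBR3* in 10. *ALDH9A1* was lost only without a dye term (0.0581) and *AKR1A1* only without replicate 2 (0.0702). *CBR3* was lost without replicate 4 (0.0770). *FMO5* was lost without replicate 2, 3 or 4 (0.148, 0.137 and 0.235). *AKR1B1* passed with the mean of all probes, median centring, no dim probes, and without replicate 3 or 4. *CYP4A22* and *UGT1A1* passed as lower without replicate 1 (-0.35 and -0.38). For *CYP4A22* the ratios of arrays 2 and 4 were positive (0.50 and 0.46), and only that of array 3 was negative (-1.18). *SULT1A1* turned to 0.21 (adjusted p = 0.0404) with the mean of all probes, against -0.01.

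With the pools as separate channels and no replicate block, *CBR3* and *FMO5* were lost. Of the further lists, *PGRMC2* missed the threshold under 7 alternatives, *ALAD* under 6, *SELENBP1* and *CYB5R4* under 4 each, *FDX1* and *FDX2* under 2 each and *HSD17B7* under 1. Over all named genes, 746 were higher and 745 lower, against 822 and 438 with median centring, 815 and 564 with the mean of all probes, 242 and 249 with separate channels, 377 and 392 with no dye term, 1132 and 1145 with the authors' ratios, 325 and 356 without replicate 2, and 398 and 352 without replicate 4. Signal limits the 22 genes above the floor in only some pools and the 5 above it in none.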

Other observations

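Retinoid and steroid genes outside the 67 were compared in the same way. Of 19 measured genes of retinoid handling (22 listed), 1 was higher and 1 was lower in NHSM (5.26% each way, against 5.95% higher and 5.94% lower among all named genes). *DHRS9*, which oxidises retinol, had log2 signals of 8.67, 8.78, 8.83 and 8.59 in NHSM pools, against 7.66, 7.44, 7.58 and 7.39 in SOF pools, an increase of 1.20 (SE 0.07, adjusted p = 0.000378). *LRAT*, which stores retinol as esters, had log2 signals of 7.93, 7.46, 7.89 and 7.79 in NHSM pools, against 8.80, 8.82, 8.50 and 8.74 in SOF pools, a log2 fold change of -0.95 (SE 0.09, adjusted p = 0.00176). Neither gene's pools overlapped between the media, and with all probes averaged *DHRS9* gave 0.75 and *LRAT* -0.34, which still passed. The median log2 fold change of the 19 genes was -0.01, against -0.02 for all named genes.

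Of 16 measured hydroxysteroid dehydrogenases and related genes (19 listed), 0 were higher and 1 was lower (6.25%, against 5.94% of all named genes). *HSD17B7*, which acts in cholesterol synthesis and also reduces oestrone to oestradiol, averaged 10.63 in NHSM and 11.25 in SOF, a log2 fold change of -0.63 (SE 0.07, adjusted p = 0.00343). It did not pass with the pools as separate channels (adjusted p = 0.0746).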
